A study of Mus musculus with 9 samples.

Results

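The genes described here are 36 members of the antioxidant programme of mouse cells: the transcription factor NRF2 (encoded by Nfe2l2) with its regulators, the glutathione and thioredoxin systems, the enzymes that supply NADPH, ferritin, haem and quinone enzymes, and the metallothioneins. They were chosen by gene symbol, and each of the 36 symbols matched 1 row of the 31232 genes in the deposited table. The cells were bEnd.3, a mouse brain endothelial line immortalised with the polyoma virus middle T antigen, grown on glass coverslips and exposed to flow in a parallel-plate chamber. Vortex cells (VSS in the protocols) received vortex flow at 0.5 to 2 dyne/cm2, set as a model of the late, enlarged intracranial aneurysm, HSS cells laminar flow at 20 dyne/cm2, chosen to stand for early disease, when an aneurysm forms where a vessel branches, and PSS cells laminar flow at 10 dyne/cm2, set as the normal shear of brain vessels. All groups carry the same line and medium, and each has 3 sequenced libraries of polyadenylated RNA. No label tells whether a group's libraries come from different cultures, and mixed RNA is mentioned for the extraction, so the p-values measure the spread between these libraries, which may be technical.

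NRF2 is held in the cytosol and marked for degradation by KEAP1. Oxidants and electrophiles modify cysteines of KEAP1, NRF2 then enters the nucleus, pairs with a small MAF protein and binds antioxidant response elements before genes for glutathione synthesis, quinone reduction, thioredoxin recycling, NADPH supply, haem breakdown and iron storage. Glutathione and thioredoxin both draw on NADPH to reduce peroxides and oxidised proteins. In endothelium, laminar shear is known to activate NRF2 and its targets, alongside the flow-induced factor KLF2.

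The core of the antioxidant response element, TGACNNNGC, was looked up on both strands in the 250 bases before the annotated start of each gene, using the RefSeq promoter table on build GRCm38.p6. That build differs from GRCm39, which the submitters' processing notes name. Of the 36 members 29 had an entry, and 8 of the 29 (27.6%) had a match in at least 1 window, where 11.5% of all 27025 genes in the table did. The matching stretches are shown because NRF2 with a small MAF partner is known to bind such a core, and they are given 5′ to 3′ on the strand of the gene with the 9 bases of the core in capitals. A match is a description of letters and not a measured site, and a member with no match here has none in this window only.
G6pdx, GRCm38.p6 chrX:74428914-74428952, minus strand: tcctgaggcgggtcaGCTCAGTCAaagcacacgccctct
Gclm, GRCm38.p6 chr3:122245408-122245446, plus strand: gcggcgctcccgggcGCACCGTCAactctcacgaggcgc
Mafg, GRCm38.p6 chr11:120633746-120633784, minus strand: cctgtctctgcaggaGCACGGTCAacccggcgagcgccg
Mt2, GRCm38.p6 chr8:94172524-94172562, plus strand: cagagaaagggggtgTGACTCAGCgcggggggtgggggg
Nfe2l2, GRCm38.p6 chr2:75704880-75704913, minus strand: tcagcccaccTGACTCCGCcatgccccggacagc
Prdx1, GRCm38.p6 chr4:116685451-116685489, plus strand: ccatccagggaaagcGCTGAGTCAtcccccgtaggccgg
Sod1, GRCm38.p6 chr16:90220691-90220729, plus strand: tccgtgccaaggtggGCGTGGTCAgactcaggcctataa
Txnrd1, GRCm38.p6 chr10:82859099-82859137, plus strand: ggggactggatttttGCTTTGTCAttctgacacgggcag
In Mt2 and Prdx1 the core overlaps an AP-1 motif, TGACTCA. The match lies 57 to 49 bases before the start in G6pdx, 134 to 126 in Gclm and 240 to 232 in Nfe2l2. In G6pdx, Gclm, Mafg, Prdx1, Sod1 and Txnrd1 it reads on the opposite strand. Of these 8 genes, G6pdx was called in HSS against PSS and Gclm in Vortex against PSS, as given below. In those comparisons 7 and 13 of the 33 tested members were called, and 7.87% and 13.4% of all tested genes. Mafg, Nfe2l2, Prdx1, Sod1 and Txnrd1 were not called in any comparison of flow conditions. Mt2 was not tested.

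Total counts per library ranged from 17407217 to 22965802. Of the 11 endothelial markers looked up, all had counts in every group, but their summed level was 758.8, 6691.4 and 1180.8 CPM (counts scaled to the library total) in Vortex replicates 1, 2 and 3, 377.5 to 382.2 in HSS and 2335.2 to 2954.5 in PSS. By the test below, 9 of the 11 were higher in Vortex than in HSS, where 4.37% of all tested genes were. Not every marker was above HSS in each Vortex library. Egfl7 had 99, 4159 and 528 counts in Vortex and 171, 170 and 137 in HSS, while Kdr had 1495, 15607 and 2210 in Vortex and 151, 138 and 139 in HSS. In HSS 8 were lower than in PSS, where 3.7% of all tested genes were. Between Vortex and PSS 0 of the 11 were called in either direction. The 8 fibroblast and pericyte markers summed to 656.9, 61.2 and 591 CPM in Vortex replicates 1, 2 and 3, 351.8 to 368.8 in HSS and 289.1 to 363.2 in PSS. Vortex replicate 2 thus stands apart from the other Vortex libraries. The 7 macrophage and leukocyte markers found summed to 30.2 to 80.9 CPM in Vortex, 35.9 to 39.2 in HSS and 10.8 to 12.6 in PSS. Ptprc, which defines leukocytes, was at 0 or 1 count in each library. Of the 4 tested, 2 were higher in HSS and 3 in Vortex than in PSS. Between Vortex and HSS 1 was higher in Vortex, and 0 were lower in any of these comparisons. Csf1r had 271, 276 and 175 counts in Vortex, 367, 281 and 360 in HSS and 29, 28 and 59 in PSS. Cldn5, a defining tight-junction gene of brain endothelium, had 13, 7791 and 62 counts in Vortex, 2, 0 and 0 in HSS and 1162, 1202 and 1110 in PSS. These shifts run along with the comparisons below, and their part in them was not tested. In bulk RNA, fewer cells of a type and less RNA per cell cannot be told apart.

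Of the 36 members, 33 had enough counts to be tested. Calls come from edgeR's quasi-likelihood test fitted to all 9 libraries, at a p under 0.05 once adjusted by Benjamini-Hochberg across the 15774 genes tested. All fold changes are on the log2 scale with their SE. Unless noted, levels and orders of libraries are given in FPKM, which does not carry the TMM factors of the test. These were 0.911, 0.917 and 0.968 in Vortex replicates 1, 2 and 3, 1.02 to 1.03 in HSS and 1.02 to 1.07 in PSS. Vortex levels are therefore higher against the other groups in the test than in FPKM, and orders can differ. The median over the 33 of the highest library divided by the lowest within a group was 1.80 in Vortex, 1.06 in HSS and 1.42 in PSS, so the HSS libraries were close to each other and the Vortex libraries were not.

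HSS cells had 7 of the 33 members higher than PSS cells and 0 lower, with 26 not called, where 4.18% of all tested genes were higher and 3.7% lower (7.87% in either direction). The 7 were Slc7a11, Gstm1, Srxn1, Sod2, G6pdx, Nqo1 and Fth1. Their log2 fold changes ran from 0.86 for G6pdx to 2.93 for Slc7a11. At an unadjusted p under 0.05, 12 members were higher and 0 lower, where 12% and 11.4% of all tested genes were. DESeq2 called 7 and 0, and 6.18% and 6.12% of the genes it tested. The median log2 fold change of the 33 was 0.34, against 0 over all tested genes, and 17 members had all HSS libraries above all PSS libraries in FPKM (27.5% of all tested genes did) and 4 all below (28.4% did). Without Vortex replicate 2, 12 members were higher and 2 lower, where 15.4% and 13.7% of tested genes were. Without any 1 PSS or HSS library the count of higher members was 2 or 3, and the share of all tested genes that were higher 0.796% to 1.31%. For all but Gstm1 and Srxn1 the calls ended without 1 or more of these libraries, as given beside each gene. A fit of the HSS and PSS libraries alone called 14 members higher and 2 lower, where 20.4% of its genes were higher and 20.4% lower.

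Vortex cells had 13 of the 33 members higher than PSS cells and 0 lower, with 20 not called, where 8.33% of all tested genes were higher and 5.03% lower (13.4% in either direction). They were Slc7a11, Gclm, Gstm1, Abcc1, Srxn1, Gpx4, Sod2, Taldo1, Tkt, Nqo1, Blvrb, Fth1 and Ftl1. The median log2 fold change of the 33 was 0.78, against 0.11 over all tested genes, and 32 of the 33 values were above 0. At an unadjusted p under 0.05, 21 members were higher and 0 lower, where 17.7% and 12.1% of all tested genes were. DESeq2 called 15 and 0, and 11.6% and 8.01% of the genes it tested. All 3 Vortex libraries lay above all 3 PSS libraries in FPKM for 14 members (10.6% of all tested genes) and below for 0 (19.5%). Without Vortex replicate 2 the counts were 17 higher and 0 lower, where 19.7% and 16.6% of tested genes were, and without PSS replicate 1 they were 5 and 0, where 1.81% and 1.37% were. A fit of the Vortex and PSS libraries alone called Gstm1 as the only member (adjusted p = 0.0492), with 0.264% of its genes higher and 0.224% lower, and the other 12 had adjusted p from 0.0506 to 0.161 there. This comparison shares its PSS libraries with that of HSS, so the calls of the 2 comparisons are not independent.

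Vortex cells set against HSS cells had 5 members higher (Abcc1, Prdx6, Gpx4, Taldo1 and Ftl1) and 0 lower, with 28 not called, where 4.37% of all tested genes were higher and 2.67% lower (7.04% in either direction). The log2 fold changes of the 5 ran from 0.70 for Taldo1 to 1.44 for Ftl1, the median of the 33 was 0.41 and that of all tested genes 0.10. At an unadjusted p under 0.05, 12 were higher and 0 lower, where 16.7% and 10.1% of all tested genes were. DESeq2 called 9 and 0, and 10.3% and 5.72% of the genes it tested. In FPKM, 10 members had all Vortex libraries above all HSS libraries (13.9% of all tested genes) and 2 below (22.3%). Without Vortex replicate 2 the counts were 9 and 2, where 13.9% and 10% of tested genes were called, and without Vortex replicate 1 they were 8 and 0, where 8.82% and 6.21% were. Without any 1 HSS library they were 0 and 0, with at most 0.0987% of genes higher, and without PSS replicate 1 also 0 and 0, with 1.19% higher. They were 2 and 0 without PSS replicate 2 (2.26% higher) or Vortex replicate 3 (3.56% higher). A fit of the Vortex and HSS libraries alone called 0 members, with 0.312% of its genes higher and 0.126% lower. With a smooth GC trend removed from each library, 2 members remained called, Abcc1 and Prdx6.

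**Figure D1:**
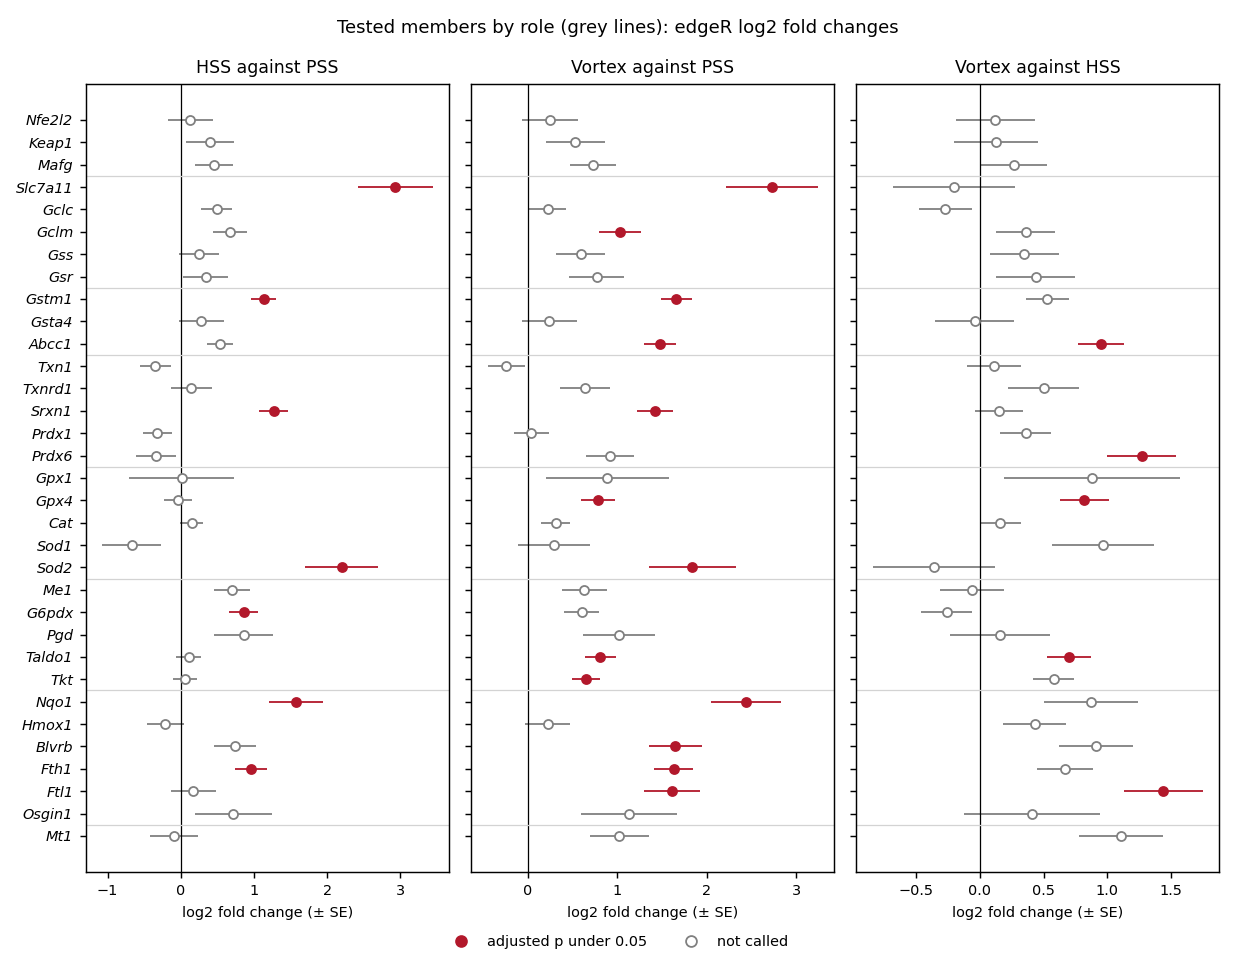
Log2 fold change (x axis, with SE as bars) of the 33 tested members (rows, grouped by role between the grey lines) in HSS against PSS, Vortex against PSS and Vortex against HSS, with filled red points for an adjusted p under 0.05. There are 7, 13 and 5 red points, all to the right of 0.

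The sensor and the transcription factor themselves were not called. Nfe2l2 (ENSMUSG00000015839) had 67, 26.5 and 64.6 FPKM in Vortex replicates 1, 2 and 3, 54.4, 52.3 and 52.5 FPKM in HSS and 46.9, 44.2 and 57.3 FPKM in PSS. The groups overlapped, with Vortex replicate 2 the lowest of all 9 libraries. Its log2 fold change was 0.25 ± 0.31 in Vortex against PSS, 0.13 ± 0.31 in HSS against PSS and 0.12 ± 0.31 in Vortex against HSS (adjusted p = 0.635, 0.855 and 0.839). It was higher in Vortex than in PSS once Vortex replicate 2 was left out, by 0.57 (adjusted p = 0.0141). NRF2 is known to be regulated mainly through the stability of its protein, which these RNA counts do not measure. Keap1, its inhibitor, had 4.62, 12.9 and 8.32 FPKM in Vortex replicates 1, 2 and 3, 8.4, 9 and 8.5 FPKM in HSS and 7.32, 7.72 and 5.12 FPKM in PSS, and overlapped between Vortex and the other groups. All HSS libraries lay above all PSS libraries, with a log2 fold change of 0.40 ± 0.33 (adjusted p = 0.532). Mafg, the small MAF partner, averaged 31.3 ± 1 FPKM in Vortex, 28.6 ± 0.782 in HSS and 21.4 ± 8.03 in PSS (n = 3 libraries a group, with the SD after ±, as for such averages below). It was at 0.73 ± 0.26 in Vortex and 0.46 ± 0.26 in HSS against PSS (adjusted p = 0.0905 and 0.322), and PSS replicate 3, at 12.4 FPKM, was the lowest library.

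Among the genes of glutathione synthesis and recycling, the cystine importer had the largest log2 fold changes against PSS. Slc7a11 (ENSMUSG00000027737), the light chain of the cystine and glutamate exchanger that brings in the limiting amino acid of glutathione, had 33, 9.1 and 36.5 FPKM in Vortex replicates 1, 2 and 3, 33.1, 32.4 and 33.1 FPKM in HSS and 5.07, 6.01 and 2.27 FPKM in PSS. Every Vortex and HSS library was above every PSS library, and Vortex replicate 2 was far below the other 2 Vortex libraries. It rose in HSS by 2.93 ± 0.51 and in Vortex by 2.73 ± 0.51 against PSS (adjusted p = 0.0114 and 0.0108). The HSS call ended without PSS replicate 1 or 3 (adjusted p = 0.0573 and 0.0523) and the Vortex call without PSS replicate 1 (0.0539). Its Vortex value was 3.13 without Vortex replicate 2.

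Gclm, the modifier subunit of glutamate-cysteine ligase, which makes the first bond of glutathione, had 17.1, 22.5 and 16.7 FPKM in Vortex replicates 1, 2 and 3, 17.4, 14.7 and 16.2 FPKM in HSS and 11.4, 12.7 and 7.23 FPKM in PSS. All Vortex libraries and all HSS libraries lay above all PSS libraries. Against PSS it rose in Vortex by 1.03 ± 0.23 (adjusted p = 0.0218), a call that ended without PSS replicate 1 or 3 or HSS replicate 3 (0.0801, 0.0566 and 0.0518). Removing the GC trend gave 1.61 (adjusted p = 0.0343). In HSS it was at 0.67 ± 0.23 (adjusted p = 0.117, and 0.0178 without Vortex replicate 2). The catalytic subunit, Gclc, had 37, 34.3 and 30.9 FPKM in Vortex replicates 1, 2 and 3, 45.8, 44.4 and 45.5 FPKM in HSS and 36.6, 39.5 and 23.3 FPKM in PSS. Every HSS library was above every PSS library and above every Vortex library, yet no comparison called it (0.49 ± 0.21 in HSS against PSS, adjusted p = 0.199, and 0.22 ± 0.21 in Vortex against PSS, adjusted p = 0.528). Gss, glutathione synthetase, averaged 7.43 ± 2.91 FPKM in Vortex, 6.46 ± 0.312 in HSS and 5.58 ± 0.173 in PSS. Gsr, which reduces oxidised glutathione with NADPH, averaged 38.9 ± 17.7 FPKM in Vortex, 31.6 ± 1.08 in HSS and 25.7 ± 3.51 in PSS. Neither was called in any comparison, and in both Vortex replicate 2 was the highest library, at 10.6 FPKM of Gss and 55.9 of Gsr.

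Of the 3 tested genes for conjugation and export, 1 was called in HSS and 2 in Vortex against PSS. All were higher, as were 4.18% and 8.33% of all tested genes. Gstm1 (ENSMUSG00000058135), a mu-class glutathione transferase, had 57.1, 46 and 61 FPKM in Vortex replicates 1, 2 and 3, 42.5, 41.7 and 40.5 FPKM in HSS and 17.9, 20.7 and 19.7 FPKM in PSS. The 3 groups did not overlap at all, in the order Vortex, HSS, PSS. It rose by 1.66 ± 0.17 in Vortex and by 1.13 ± 0.17 in HSS against PSS (adjusted p = 0.0022 and 0.00579), and both calls held without each of the 9 libraries in turn. Vortex against HSS was at 0.53 ± 0.17 (adjusted p = 0.0859, and 0.00641 without Vortex replicate 2). Its close relatives Gstm2 and Gstm4 had 775 to 1566 and 305 to 469 counts per library, and reads shared among them make each value uncertain.

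Abcc1, the pump that exports glutathione conjugates, had 16.7, 14.7 and 14.7 FPKM in Vortex replicates 1, 2 and 3, 8.81, 8.88 and 8.66 FPKM in HSS and 6.52, 7.18 and 4.95 FPKM in PSS. Vortex lay above HSS and HSS above PSS without overlap. Vortex cells had it higher by 1.48 ± 0.18 against PSS and 0.95 ± 0.18 against HSS (adjusted p = 0.00319 and 0.0194). The first call held without each of the 9 libraries, and the second ended without any 1 HSS library (0.115 to 0.123) or PSS replicate 1 (0.0541). In HSS against PSS it was at 0.54 ± 0.18 (adjusted p = 0.101, and 0.016 without Vortex replicate 2). Gsta4, which conjugates products of lipid peroxidation, averaged 26.1 ± 11.2 FPKM in Vortex, 29.7 ± 1.54 in HSS and 24.9 ± 5.32 in PSS and was not called. Gstp1, the pi-class transferase, was not tested. It had 58 counts in Vortex replicate 2 and 0 or 1 in each of the other 8 libraries, while its paralog Gstp3 had 63 to 164.

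Srxn1 (ENSMUSG00000032802), the sulfiredoxin that restores over-oxidised peroxiredoxins, was the member of the thioredoxin group that rose under both flows. It had 86, 98 and 78.3 FPKM in Vortex replicates 1, 2 and 3, 89.9, 86.2 and 85.3 FPKM in HSS and 38.8, 44.2 and 28.4 FPKM in PSS. The Vortex and HSS libraries overlapped each other and all lay above every PSS library. It rose by 1.42 ± 0.20 in Vortex and 1.27 ± 0.20 in HSS against PSS (adjusted p = 0.0045 and 0.00637), and both calls held without each of the 9 libraries. Between Vortex and HSS it was at 0.15 ± 0.19 (adjusted p = 0.674). Txnrd1, the cytosolic thioredoxin reductase and a known NRF2 target, had 60.8, 110.2 and 74.8 FPKM in Vortex replicates 1, 2 and 3, 65.6, 63.7 and 61.8 FPKM in HSS and 65.7, 74.5 and 38.4 FPKM in PSS. The groups overlapped, and it was at 0.64 ± 0.28 in Vortex and 0.14 ± 0.28 in HSS against PSS (adjusted p = 0.158 and 0.823). Txn1, thioredoxin itself, and Prdx1, an abundant peroxiredoxin, were among the most abundant members. Txn1 averaged 167.1 ± 22.5 FPKM in Vortex, 169.9 ± 1.58 in HSS and 220.9 ± 51.6 in PSS. For Prdx1 the levels were 209.9 ± 37.2 FPKM in Vortex, 179.5 ± 5.22 in HSS and 229.1 ± 45 in PSS. In both, every HSS library lay below every PSS library, at -0.35 ± 0.21 and -0.32 ± 0.20 (adjusted p = 0.364 and 0.385). Vortex against PSS was at -0.24 ± 0.21 for Txn1 and 0.04 ± 0.20 for Prdx1 (adjusted p = 0.492 and 0.921).

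Prdx6, a peroxiredoxin that reduces phospholipid hydroperoxides, had 88.2, 186 and 105.9 FPKM in Vortex replicates 1, 2 and 3, 58.7, 58.3 and 57.4 FPKM in HSS and 71.8, 73.7 and 81.1 FPKM in PSS. All Vortex libraries were above all PSS libraries, and these above all HSS libraries, with Vortex replicate 2 the highest. It rose in Vortex against HSS by 1.27 ± 0.27 (adjusted p = 0.0293), which was lost without any 1 HSS library (0.133 to 0.143) or PSS replicate 1 or 2 (0.066 and 0.056). Leaving out Vortex replicate 2 gave 0.86 (adjusted p = 0.00156). Against PSS it was at 0.92 ± 0.27 in Vortex (adjusted p = 0.0513) and -0.34 ± 0.27 in HSS (adjusted p = 0.495). Both passed without Vortex replicate 2, in opposite directions, at 0.51 and -0.35 (adjusted p = 0.0103 and 0.0448).

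Among the enzymes that remove superoxide and peroxides, the mitochondrial superoxide dismutase had the largest called log2 fold changes. Sod2 (ENSMUSG00000006818) had 41.6, 7.46 and 34.3 FPKM in Vortex replicates 1, 2 and 3, 39.2, 39.9 and 38.3 FPKM in HSS and 9.19, 8.73 and 8.22 FPKM in PSS. In FPKM, HSS and Vortex replicates 1 and 3 lay above PSS, and Vortex replicate 2 lay just below it. It rose by 2.20 ± 0.50 in HSS and 1.84 ± 0.49 in Vortex against PSS (adjusted p = 0.0301 and 0.0397). The HSS call ended without any 1 PSS or HSS library (0.0980 to 0.126), and the Vortex call without any 1 library other than Vortex replicate 2 (0.0721 to 0.13) and with no low-count filter (0.061). Its Vortex value was 2.28 without Vortex replicate 2. Sod2 is also a known target of NF-kappaB in endothelium. Sod1, the cytosolic enzyme, averaged 105.2 ± 69.3 FPKM in Vortex, 59.5 ± 1.93 in HSS and 96.8 ± 20.5 in PSS. Vortex replicate 2 alone was at 185 FPKM. All HSS libraries lay below all PSS libraries, at -0.67 ± 0.40 (adjusted p = 0.363), and without Vortex replicate 2 this passed (adjusted p = 0.011).

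Gpx4 (ENSMUSG00000075706), the selenium enzyme that reduces lipid peroxides in membranes and restrains ferroptosis, had 126.9, 169.8 and 142.1 FPKM in Vortex replicates 1, 2 and 3, 91.6, 89.4 and 92.3 FPKM in HSS and 91.2, 83.1 and 113.2 FPKM in PSS. Every Vortex library was above every HSS and PSS library. It rose in Vortex by 0.78 ± 0.19 against PSS and 0.82 ± 0.19 against HSS (adjusted p = 0.0302 and 0.0381), and was at -0.04 ± 0.19 in HSS against PSS (adjusted p = 0.928). The call against PSS ended without PSS replicate 1 or 2, any 1 HSS library or Vortex replicate 3 (0.0620 to 0.135), and that against HSS without any 1 HSS library, PSS replicate 1 or 2 or Vortex replicate 3 (0.0585 to 0.170). With the GC trend removed both calls ended, and the values were 0.31 against PSS and 0.58 against HSS (adjusted p = 0.403 and 0.122). With no low-count filter they ended too (0.111 and 0.1). Gpx4 has the highest GC content of the members, at 60.2%. Cat, catalase, was not called in any comparison. It had 45.7, 43.5 and 51.3 FPKM in Vortex replicates 1, 2 and 3, 44.8, 46 and 47.3 FPKM in HSS and 42.4, 39 and 45.9 FPKM in PSS, and its log2 fold changes against PSS were 0.31 ± 0.16 in Vortex and 0.15 ± 0.16 in HSS (adjusted p = 0.226 and 0.637). Gpx1, the cytosolic glutathione peroxidase of most cells, had 12, 39 and 16 counts in Vortex, 6, 19 and 10 in HSS and 9, 5 and 24 in PSS and was not called. Sod3, the extracellular superoxide dismutase, had 0, 2 and 0 counts in Vortex, 9, 6 and 7 in HSS and 1, 0 and 3 in PSS and was not tested.

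Of the 5 genes of NADPH supply, 2 rose in Vortex and 1 in HSS against PSS, where 8.33% and 4.18% of all tested genes rose. G6pdx, glucose-6-phosphate dehydrogenase, which opens the pentose phosphate pathway, had 37.5, 61.3 and 49.3 FPKM in Vortex replicates 1, 2 and 3, 65.5, 64.2 and 65.3 FPKM in HSS and 35, 36.3 and 39 FPKM in PSS. In FPKM all HSS libraries lay above all Vortex and PSS libraries, while Vortex and PSS overlapped. It rose in HSS by 0.86 ± 0.20 against PSS (adjusted p = 0.0335). Dropping a single PSS or HSS library (0.0791 to 0.156) or Vortex replicate 3 (0.0576), or testing with no low-count filter (0.0888), ended the call. In Vortex it was at 0.60 ± 0.20 against PSS and -0.26 ± 0.20 against HSS (adjusted p = 0.0786 and 0.443). Both passed without Vortex replicate 2, at 0.39 and -0.46 (adjusted p = 0.044 and 0.0347). Pgd, the next NADPH-forming enzyme, averaged 51.6 ± 34.5 FPKM in Vortex, 51.2 ± 1.48 in HSS and 28.9 ± 2.8 in PSS, and Vortex replicate 2 alone was at 90.6 FPKM. It was not called (0.86 ± 0.40 in HSS against PSS, adjusted p = 0.23), and passed in HSS without Vortex replicate 2 (adjusted p = 0.00195).

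Taldo1 and Tkt, the transaldolase and transketolase of the non-oxidative branch, rose in Vortex. Taldo1 had 90.5, 110.1 and 100.5 FPKM in Vortex replicates 1, 2 and 3, 65, 70.5 and 68.2 FPKM in HSS and 62.2, 59.2 and 71.4 FPKM in PSS, and every Vortex library was above every other. It rose by 0.81 ± 0.17 against PSS and 0.70 ± 0.17 against HSS (adjusted p = 0.015 and 0.0398). The call against PSS ended without PSS replicate 1 or 2 (0.0895 and 0.0694), and that against HSS without any 1 HSS library, PSS replicate 1 or 2 or Vortex replicate 3 (0.0658 to 0.192). Tkt had 36.5, 47.8 and 49.7 FPKM in Vortex replicates 1, 2 and 3, 31.7, 32.4 and 33.9 FPKM in HSS and 32.2, 33.9 and 30.1 FPKM in PSS, with every Vortex library above the rest. It rose by 0.65 ± 0.16 against PSS (adjusted p = 0.0301), which was lost on dropping a single PSS or HSS library or Vortex replicate 3 (0.0738 to 0.128). It was at 0.58 ± 0.16 against HSS (adjusted p = 0.059, and 0.0235 and 0.0204 without Vortex replicates 1 and 2). In HSS against PSS, Taldo1 was at 0.11 ± 0.17 and Tkt at 0.06 ± 0.16 (adjusted p = 0.755 and 0.861). With the GC trend removed, Taldo1 in Vortex was at 0.53 against PSS and 0.52 against HSS (adjusted p = 0.0598 and 0.0642), and Tkt at 0.35 against PSS (0.134). With no low-count filter these calls also ended (0.0755 and 0.148 for Taldo1, 0.169 for Tkt). Me1, the cytosolic malic enzyme, averaged 27.4 ± 9.73 FPKM in Vortex, 31.5 ± 1.44 in HSS and 19.9 ± 1.66 in PSS. It was at 0.70 ± 0.25 in HSS against PSS (adjusted p = 0.126, and 0.00226 without Vortex replicate 2).

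Of the 6 quinone, haem and iron genes, 4 rose in Vortex and 2 in HSS against PSS, where 8.33% and 4.18% of all tested genes rose. Nqo1 (ENSMUSG00000003849), the quinone reductase used as a standard readout of NRF2, had 74.4, 178.1 and 60.8 FPKM in Vortex replicates 1, 2 and 3, 68.7, 62 and 59.7 FPKM in HSS and 21.6, 22.6 and 21.3 FPKM in PSS. All Vortex and HSS libraries lay above all PSS libraries, and Vortex replicate 2 was the highest. It rose by 2.44 ± 0.39 in Vortex and 1.57 ± 0.37 in HSS against PSS (adjusted p = 0.00633 and 0.0362). The Vortex call held without each of the 9 libraries, with a value of 1.79 without Vortex replicate 2. The HSS call ended without any 1 PSS or HSS library (0.114 to 0.145) and with the GC trend removed, where the value was 1.62 (0.0502). Blvrb, a biliverdin and flavin reductase, had 18.4, 39 and 21.9 FPKM in Vortex replicates 1, 2 and 3, 16.6, 14.7 and 15.5 FPKM in HSS and 8.83, 8.35 and 11.3 FPKM in PSS, with Vortex above HSS and HSS above PSS without overlap. Against PSS it rose in Vortex by 1.65 ± 0.30 (adjusted p = 0.00987, and 0.0593 without PSS replicate 1). It was not called in HSS against PSS, at 0.74 ± 0.29, or in Vortex against HSS, at 0.91 ± 0.29 (adjusted p = 0.162 and 0.0908). Its values against PSS without Vortex replicate 2 were 1.24 in Vortex and 0.74 in HSS (adjusted p = 0.000485 and 0.00574).

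Hmox1, haem oxygenase, another classical NRF2 target, was not called in any comparison. It had 222.3, 218.7 and 178.7 FPKM in Vortex replicates 1, 2 and 3, 169.2, 171 and 166.8 FPKM in HSS and 233.1, 248.4 and 124.4 FPKM in PSS. In FPKM, PSS overlapped with both other groups, since PSS replicate 3 was the lowest of the 9 libraries and PSS replicates 1 and 2 the highest. All Vortex libraries lay above all HSS libraries. Its log2 fold change was 0.22 ± 0.25 in Vortex and -0.21 ± 0.25 in HSS against PSS (adjusted p = 0.604 and 0.668). Osgin1, a stress-induced growth inhibitor, ranged more widely: it had 10.1, 59.7 and 28.6 FPKM in Vortex replicates 1, 2 and 3, 28.2, 26.7 and 26.8 FPKM in HSS and 20.2, 21.1 and 9.82 FPKM in PSS. Within Vortex alone its highest library was 5.89 times its lowest in scaled counts, and it was not called (1.13 ± 0.54 in Vortex and 0.72 ± 0.53 in HSS against PSS, adjusted p = 0.197 and 0.475).

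Both ferritin chains rose in Vortex. Fth1 (ENSMUSG00000024661), the ferritin heavy chain that oxidises iron for storage, was the most abundant member, with 1399.5, 804.7 and 1364.5 FPKM in Vortex replicates 1, 2 and 3, 827, 838.9 and 800.7 FPKM in HSS and 420.8, 385.7 and 488.1 FPKM in PSS. All Vortex and all HSS libraries lay above all PSS libraries, and Vortex replicate 2 was within the HSS range in FPKM. It rose by 1.63 ± 0.22 in Vortex and 0.96 ± 0.22 in HSS against PSS (adjusted p = 0.0044 and 0.0302). The Vortex call held without each of the 9 libraries, and the HSS call ended without any 1 PSS or HSS library (0.0574 to 0.131). Vortex against HSS was at 0.67 ± 0.22 (adjusted p = 0.0914, and 0.00259 without Vortex replicate 2). Ftl1, the light chain, had 442, 446.4 and 392.6 FPKM in Vortex replicates 1, 2 and 3, 141.2, 242.2 and 136.2 FPKM in HSS and 176.4, 99.7 and 196.1 FPKM in PSS. Every Vortex library was above every other library, and HSS and PSS overlapped. It rose in Vortex by 1.61 ± 0.31 against PSS and 1.44 ± 0.31 against HSS (adjusted p = 0.0125 and 0.0309), and was at 0.17 ± 0.31 in HSS against PSS (adjusted p = 0.808). The call against PSS ended without PSS replicate 1 (0.0574), and that against HSS without any 1 HSS library (0.0786 to 0.154), PSS replicate 1 (0.0674) or Vortex replicate 3 (0.0512). Both ended with the GC trend removed, at 1.16 and 1.24 (0.0709 and 0.0614). Ferritin genes have processed copies in the genome, and the pseudogene Ftl1-ps1 had 34 to 176 counts per library, so reads shared with such copies make these levels uncertain.

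**Figure D2:**
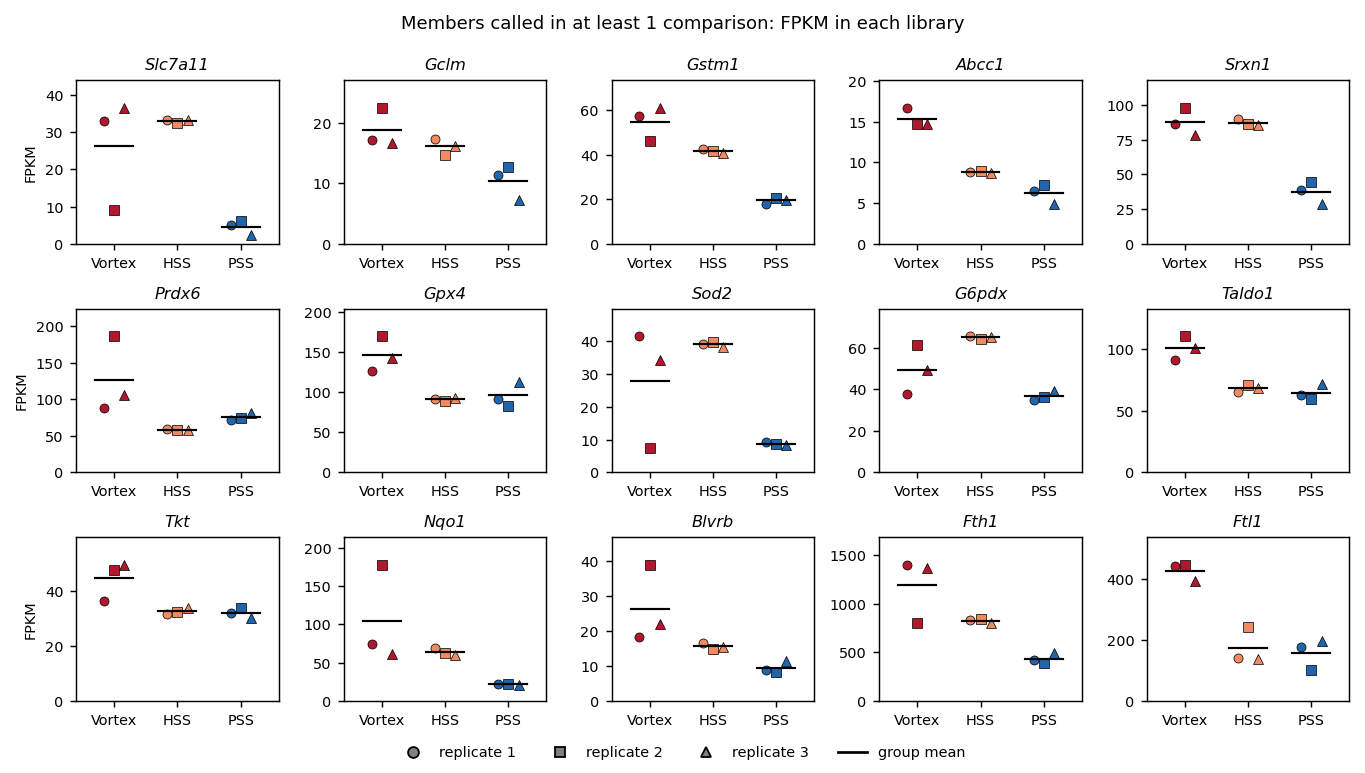
FPKM (y axis, from 0) of the 15 members called in at least 1 comparison, in each library of Vortex, HSS and PSS, with the group mean as a line. Gstm1, Abcc1 and Blvrb form 3 separate levels, while Slc7a11 and Sod2 are low and Nqo1, Prdx6 and Blvrb high in Vortex replicate 2 (squares).

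Mt1, a metallothionein that binds zinc and copper, had 132.4, 47.2 and 112.5 FPKM in Vortex replicates 1, 2 and 3, 46.7, 54.1 and 47.7 FPKM in HSS and 59.2, 47.1 and 55.4 FPKM in PSS. Vortex replicates 1 and 3 were above all other libraries, and Vortex replicate 2 was among those of PSS and HSS. It was not called with all libraries (1.02 ± 0.33 in Vortex against PSS and 1.11 ± 0.33 against HSS, adjusted p = 0.0721 and 0.075). Both values passed without Vortex replicate 2, at 1.34 and 1.43 (adjusted p = 0.000158 and 0.000362). HSS was at -0.09 ± 0.33 against PSS (adjusted p = 0.91). Mt2, its neighbour in the family, had 1 count in Vortex replicate 3 and 0 in the other 8 libraries. A count of 0 allows up to 3 counts, or 0.131 to 0.172 CPM of the unscaled library total, for counting error only.

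Within the libraries that stand apart, members deviated in both directions. In scaled counts, Vortex replicate 2 was at least 2-fold above the mean of Vortex replicates 1 and 3 on the log2 scale for 5 of the 33 tested members (Osgin1, Pgd, Sod1, Nqo1 and Keap1) and at least 2-fold below for 4 (Sod2, Slc7a11, Mt1 and Nfe2l2). Such members were 27.3% of the 33, and 37.2% of all tested genes were as far apart. The deviation ran with GC content at a Pearson correlation of 0.33 over the 33 members and 0.40 over 15533 tested genes, which share the same 3 libraries and are not independent. PSS replicate 3 was at least 1.5-fold below the mean of PSS replicates 1 and 2 for 7 members (Slc7a11, Osgin1, Mafg, Hmox1, Txnrd1, Gclm and Gclc) and as far above for 3 (Gpx1, Ftl1 and Txn1). The share of all tested genes as far apart in PSS replicate 3 was not computed, so these counts do not set the members apart from other genes.

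**Figure D3:**
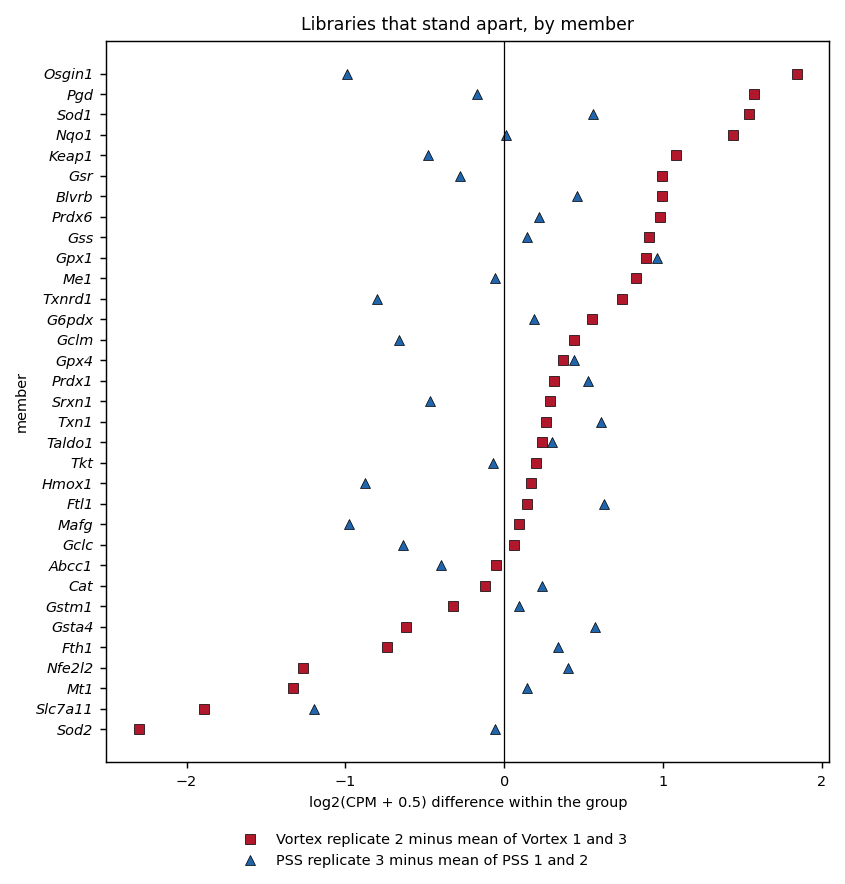
Difference in log2(CPM + 0.5) (x axis) of Vortex replicate 2 from the mean of the other 2 Vortex libraries (red squares) and of PSS replicate 3 from the mean of the other 2 PSS libraries (blue triangles), for the 33 tested members (y axis). The squares run from -2.30 for Sod2 to 1.84 for Osgin1 and the triangles from -1.20 for Slc7a11 to 0.96 for Gpx1.

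Beyond the members, 129 other genes of these pathways were looked up, of which 125 were tested. In HSS against PSS 16 were higher and 3 lower, in Vortex against PSS 33 higher and 6 lower, and in Vortex against HSS 10 higher and 4 lower. The shares were 12.8% and 2.4%, 26.4% and 4.8%, and 8% and 3.2%, beside the shares of all tested genes given above. Their median log2 fold changes were 0.15, 0.39 and 0.25, against 0, 0.11 and 0.10 over all tested genes. Without Vortex replicate 2 the counts were 39 and 16, 51 and 18, and 31 and 10. In that setting 15.4% and 13.7%, 19.7% and 16.6%, and 13.9% and 10% of all tested genes were higher and lower. Over all 9 libraries left out in turn the calls in either direction numbered 3 to 55, 14 to 69 and 0 to 41. Meanwhile 0.796% to 15.4%, 1.81% to 19.7% and 0.0976% to 13.9% of all tested genes were higher. The shares lower were 0.872% to 13.7%, 1.37% to 16.6% and 0.0555% to 10%. Fits of the compared libraries alone called 67, 2 (Aldh3a1 and Slc11a2) and 0. Those fits called 20.4% of all their genes higher and 20.4% lower, 0.264% and 0.224%, and 0.312% and 0.126%. By role, 9 of 30 further glutathione genes and 9 of 27 for detoxification and export rose in Vortex against PSS, with 1 and 0 lower. Of 14 further genes of NRF2 sensing and relatives 1 rose and 0 fell there. In that comparison 8.33% of all tested genes rose and 5.03% fell.

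Aldh3a1, an aldehyde dehydrogenase, had 15.4, 2.35 and 15.9 FPKM in Vortex replicates 1, 2 and 3, 7.86, 8.73 and 8.27 FPKM in HSS and 0.331, 0.294 and 0.297 FPKM in PSS. PSS lay far below both other groups, and Vortex replicate 2 was below the other Vortex and the HSS libraries. It rose by 5.34 ± 0.68 in Vortex and 4.77 ± 0.67 in HSS against PSS (adjusted p = 0.00377 and 0.00472), and both calls held without each of the 9 libraries. Slc3a2, the heavy chain that pairs with Slc7a11, had 129, 145.1 and 132.6 FPKM in Vortex replicates 1, 2 and 3, 89.8, 88.4 and 87.3 FPKM in HSS and 61.4, 68.7 and 48.6 FPKM in PSS, with Vortex above HSS and HSS above PSS without overlap. Its rise in Vortex was 1.36 ± 0.17 against PSS (adjusted p = 0.00319), a call that held without each of the 9 libraries. Nfe2l1, a relative of NRF2, was at 1.33 ± 0.18 in Vortex and 0.90 ± 0.17 in HSS against PSS (adjusted p = 0.00394 and 0.016), and its HSS call ended without any 1 PSS or HSS library (0.0511 to 0.0874) and with the GC trend removed, at 0.77 (0.0618). Abcc4, an export pump related to Abcc1, rose by 1.15 ± 0.20 in HSS against PSS (adjusted p = 0.0107, and 0.0572 to 0.0605 without any 1 HSS library). Nadk, the kinase that makes NADP from NAD, rose there by 0.88 ± 0.16 (adjusted p = 0.0138, and 0.0780 to 0.0876 without PSS replicate 1 or any 1 HSS library, and 0.053 with no low-count filter). Ggct, which breaks down gamma-glutamyl peptides, fell in HSS by 1.15 (SE 0.27, adjusted p = 0.0332), which was lost on dropping a single PSS or HSS library (up to 0.165).

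Por, the reductase that feeds electrons to cytochrome P450 and haem oxygenase, had 120.2, 78.2 and 102.2 FPKM in Vortex replicates 1, 2 and 3, 44.6, 43.1 and 44.7 FPKM in HSS and 38.8, 42.5 and 32.9 FPKM in PSS. Vortex lay above HSS and HSS above PSS without overlap. It rose in Vortex by 1.57 ± 0.20 against PSS and 1.32 ± 0.19 against HSS (adjusted p = 0.00322 and 0.0108). The first call held without each of the 9 libraries, and the second ended without any 1 HSS library (0.0786 to 0.0843). In the same comparison with HSS the higher genes with the next smallest p were Ggt1, which cleaves extracellular glutathione, at 2.52 ± 0.39, Gsto1, an omega-class transferase, at 0.99 ± 0.19, Txnip, the thioredoxin inhibitor, at 1.09 ± 0.22, and Hagh, a glyoxalase, at 1.29 ± 0.27 (adjusted p = 0.0127, 0.0225, 0.0258 and 0.0258). The 4 lower genes were Tfrc, Sesn3, Trim21 and Ggt5, at -1.23 ± 0.23, -1.53 ± 0.30, -1.65 ± 0.36 and -2.16 ± 0.50 (adjusted p = 0.0191, 0.0225, 0.0325 and 0.0361). The calls of these 8 ended without any 1 HSS library (0.0819 to 0.143), and 7 of them, all but Ggt1, also without PSS replicate 1 (0.0501 to 0.0785). Those of Trim21 and Ggt5 ended without PSS replicate 2 too (0.0523 and 0.0669), that of Ggt5 without PSS replicate 3 (0.0557), and those of Txnip and Ggt5 without Vortex replicate 3 (0.0512 and 0.0787). That of Hagh ended with the GC trend removed (0.0621). Nox4, an oxidase that makes hydrogen peroxide, fell in Vortex by 2.46 (SE 0.35) and in HSS by 1.29 (SE 0.33) against PSS (adjusted p = 0.00479 and 0.0468), at levels of at most 0.937 FPKM in any library. Dropping a single PSS or HSS library, or Vortex replicate 3, ended the HSS call of Nox4 (0.0596 to 0.206), as did no low-count filter (0.0915). With the GC trend removed Nox4 was at -1.49 in Vortex and -1.14 in HSS, and both calls ended (adjusted p = 0.107 and 0.194). Sesn3, a sestrin, fell in Vortex against PSS by 1.46 (SE 0.30, adjusted p = 0.0141, and 0.0627 and 0.0551 without PSS replicates 1 and 2). Ggt5, a gamma-glutamyl transferase, also fell there (-2.79 ± 0.50, adjusted p = 0.00959).

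Of 15 further genes of iron, haem and metal handling, 4 rose and 3 fell in Vortex, and 3 rose and 1 fell in HSS, against PSS. Of all tested genes, 8.33% rose and 5.03% fell in Vortex, and 4.18% rose and 3.7% fell in HSS. Slc40a1, ferroportin, the only known cellular iron exporter of mammals, had 2.7, 3 and 4.75 FPKM in Vortex replicates 1, 2 and 3, 2.51, 2.59 and 2.57 FPKM in HSS and 9.17, 9.21 and 9.17 FPKM in PSS. No Vortex or HSS library reached the PSS level. It fell by 1.24 (SE 0.21) in Vortex and by 1.81 (SE 0.22) in HSS against PSS (adjusted p = 0.00807 and 0.00247). Slc11a2, the divalent metal importer DMT1, had 29.1, 20.8 and 26.5 FPKM in Vortex replicates 1, 2 and 3, 26.8, 27.1 and 26.6 FPKM in HSS and 9.74, 9.95 and 8.43 FPKM in PSS. It rose by 1.62 ± 0.18 in Vortex and 1.55 ± 0.18 in HSS against PSS (adjusted p = 0.00242 and 0.00222). All 4 of these calls held without each of the 9 libraries. With the GC trend removed, Slc40a1 in Vortex was at -0.72 and its call ended (adjusted p = 0.112). Tfrc, the transferrin receptor, had 19.6, 11.2 and 19 FPKM in Vortex replicates 1, 2 and 3, 42.7, 41.9 and 43.5 FPKM in HSS and 40.1, 36.4 and 45.5 FPKM in PSS, and was low in the Vortex libraries. It fell in Vortex by 1.13 (SE 0.23) against PSS (adjusted p = 0.0137, and 0.0594 and 0.0505 without PSS replicates 1 and 3). Removing the GC trend put it at -0.52 against PSS (adjusted p = 0.0567) and -0.75 against HSS (0.0193). Slc48a1, a haem transporter, and Ireb2, an iron regulatory protein that controls the RNAs of ferritin and the transferrin receptor, were chosen after their values were seen. Slc48a1 was at 1.25 ± 0.18 in Vortex against PSS (adjusted p = 0.00502), a call that held without each library. Ireb2 had 8.39, 4.16 and 9.28 FPKM in Vortex replicates 1, 2 and 3, 13.9, 14 and 14.8 FPKM in HSS and 18.4, 17.9 and 20.5 FPKM in PSS and fell in Vortex by 1.22 (SE 0.27) against PSS (adjusted p = 0.0205, and 0.0566 to 0.0722 without any 1 PSS library). Ireb2 was at -0.59 with the GC trend removed (adjusted p = 0.0357).

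**Figure D4:**
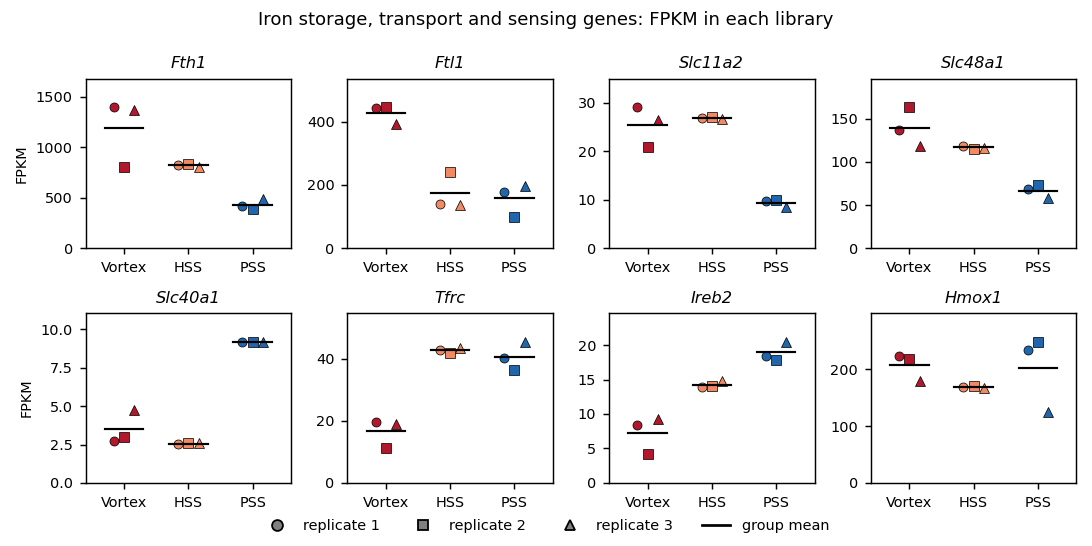
FPKM (y axis, from 0) of 8 iron storage, transport and sensing genes in each library of Vortex, HSS and PSS, with the group mean as a line. Fth1, Slc11a2 and Slc48a1 are lowest in PSS and Slc40a1 is highest there, while Tfrc and Ireb2 are lowest in Vortex and Hmox1 overlaps between PSS and the other groups.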

How the data were processed

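RNA of bEnd.3 cells was sequenced in 9 libraries, 3 each of Vortex, HSS and PSS, grouped by their titles. The deposited counts are raw reads per gene, and HISAT2 and HTSeq 0.13.5 with build GRCm39 are named, per the submitters' processing notes. The sources used here give no strand setting or annotation release. The deposited FPKM values, made by the authors, divide each count by gene length and library total: in 100% of 14537 genes with at least 20 counts they gave 1 length in all libraries, within a relative tolerance of 1e-06.

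Counts were filtered (filterByExpr), scaled by TMM and tested with edgeR 4.0.16 (R 4.3.3), robust quasi-likelihood, in 1 fit of all 9 libraries, with Benjamini-Hochberg adjustment over 15774 genes. Each SE was derived from the F statistic and the log2 fold change. The biological coefficient of variation was 0.35. DESeq2 1.42.0, its size factors, no low-count filter, fits of the compared libraries, a replicate block, GC trends removed by loess (span 0.3) and each library left out were alternatives. The GC content of the longest transcript came from an annotation of GRCm38, which covers 98.5% of tested genes. The procedure was tested on simulated data.

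Library totals of 17407217 to 22965802 set the counting precision, and 3 counts correspond to 0.131 to 0.172 CPM of these unscaled totals. The members and lists were chosen with earlier results of these data known. Values in every library are given for each member called in any comparison and for standard NRF2 targets. Of the other pathway genes, up to 5 with the smallest p per comparison and direction are named. Gene coordinates on GRCm39 are not used here.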

Additional observations from a re-analysis of the deposited data

How the results depend on the processing

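Over 9 counts of called genes and the alternatives other than leaving out 1 library, 43 values kept within 1.5 times the main value and 20 moved. These alternatives include the fits of the compared libraries, which drop the third group. A count of 0 in both fits was taken as kept, and lower members were 0 in the main fit of each comparison. Members higher in HSS than PSS numbered 14, and lower 2, in a fit of those libraries alone. Members higher in Vortex than PSS numbered 1 in the fit of the compared libraries and 8 with the GC trend removed and a replicate block. Members higher in Vortex than HSS numbered 3 with no low-count filter, 9 with DESeq2, 2 with the GC trend removed, and 0 in the fit of the compared libraries, with the replicate block and with both GC trend and block. Other pathway genes called numbered, in HSS against PSS, 29 with DESeq2, 67 in the fit of the compared libraries, 10 with the replicate block and 11 with GC trend and block. In Vortex against PSS they numbered 2 in the fit of the compared libraries and 17 with GC trend and block. In Vortex against HSS they numbered 29 with DESeq2, 0 in the fit of the compared libraries, 4 with the block and 6 with GC trend and block. In the fits of the compared libraries, 20.4% of all tested genes were higher and 20.4% lower in HSS against PSS. The shares were 0.264% and 0.224% in Vortex against PSS and 0.312% and 0.126% in Vortex against HSS. With DESeq2 they were 6.18% and 6.12% in HSS against PSS and 10.3% and 5.72% in Vortex against HSS. The cause of these moves was not tested.

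Leaving out each library gave 2 to 12 members higher and 0 to 2 lower in HSS against PSS, 5 to 18 higher in Vortex against PSS, and 0 to 9 higher and 0 to 2 lower in Vortex against HSS. The shares of all tested genes moved too. Those higher were 0.796% to 15.4%, 1.81% to 19.7% and 0.0976% to 13.9%, and those lower 0.872% to 13.7%, 1.37% to 16.6% and 0.0555% to 10%. The other pathway genes called then numbered 3 to 55 in HSS against PSS, 14 to 69 in Vortex against PSS and 0 to 41 in Vortex against HSS.

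Some uncalled log2 fold changes changed sign. Gpx1 in HSS against PSS was at -0.01 with DESeq2 or its size factors, -0.03 with no filter, -0.04 in the fit of the compared libraries, -0.10 with the replicate block, -0.24 with the GC trend removed and -0.27 with both. With the GC trend removed, without and with the block, Tkt was at -0.05 and -0.05 and Ftl1 at -0.08 and -0.02 in HSS against PSS, Hmox1 at -0.03 and -0.01 in Vortex against PSS, and Keap1 at -0.17 and -0.19, Slc7a11 at 0.09 and 0.11 and Srxn1 at -0.03 and -0.04 in Vortex against HSS. With each library left out, HSS against PSS ran from -0.08 to 0.32 for Txnrd1, -0.60 to 0.82 for Gpx1, -0.15 to 0.12 for Gpx4 and -0.15 to 0.38 for Ftl1. Vortex against PSS ran from -0.02 to 0.57 for Nfe2l2 and -0.02 to 0.38 for Hmox1, and Vortex against HSS from -0.12 to 0.44 for Nfe2l2, -0.30 to 0.40 for Keap1, -0.48 to 0.20 for Slc7a11 and -0.82 to 0.08 for Sod2.

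Replicate numbers are shared between the groups, but deviations of same-numbered libraries correlated at -0.12 to 0.12, 1 of 9 pairs over 0.1, and 5 of 9 libraries correlated best with their own number. The numbers were therefore not taken as pairs. The replicate block gave 5 members higher in HSS and 10 higher in Vortex against PSS, and 0 in Vortex against HSS. Gpx1 had only 5 to 39 counts per library, and Gstp1, Sod3 and Mt2 had too few counts to be tested. Why these counts were low was not tested.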
